A study of Mus musculus with 20 samples.

Results

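Mast cell genes are described here in 20 mouse mammary tumours by 9 genes that mark the lineage, out of 38947 named genes in the deposited table. The members were taken from a list, which was chosen with earlier results of these data known. They were Cpa3, Mcpt4, Cma1 and Tpsb2 for granule proteases, Kit, Ms4a2 and Fcer1a for surface receptors, Hdc for histamine synthesis and Gata2 for transcriptional control. Each gene is represented by its transcript with the highest total over the 20 tumours. All 9 had a row, and 8 passed the filter of a normalised count of at least 10 in at least 5 tumours. Fcer1a did not pass. Of these 8, Ms4a2 reached 10 in 14 tumours, Hdc in 15 and the others in 19 or 20.

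All tumours grew from SSM3 cells, an oestrogen receptor-positive mouse mammary tumour line, placed in a mammary gland, in 129S6/SvEv mice that were 2 to 4 months old, and reached about 150 mm3 before treatment. Mice of the letrozole + anti-PD-1 group were ovariectomised, received 1 mg/kg letrozole under the skin daily for 25 days, and were given 250 µg of anti-PD-1 antibody on days 3, 5 and 7. The letrozole group had the same surgery and drug without antibody. The anti-PD-1 group had sham surgery, 5% ethanol in saline daily and the antibody, and the vehicle group had sham surgery and 5% ethanol in saline alone. Each group held 5 tumours, which the design text calls biological replicates. Letrozole blocks oestrogen synthesis by aromatase, and anti-PD-1 blocks an inhibitory receptor of T cells. Ovariectomy and letrozole always occurred together, so "letrozole" means both.

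Mast cells are tissue-resident cells of the haematopoietic lineage that mature under stem cell factor, the ligand of Kit, and store proteases and histamine in granules. Crosslinking of IgE bound to the receptor FcεRI releases the granules. In mice, mast cells of connective tissue, including the mammary fat pad and skin, carry chymases and tryptases that differ from those of mucosal mast cells.

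Recovered depth ran from 12456356 to 31301954 reads, counted on 1 transcript per gene, and the 9 genes together took 121 to 3087 reads of a library. Anti-PD-1 tumour 1 was the shallowest library. This library and vehicle tumour 3 were treated as standing apart, following an earlier analysis of the same table, and 4 libraries (letrozole + anti-PD-1 tumour 2 and letrozole tumours 1, 4 and 5) carried high skeletal muscle genes. Vehicle tumour 3 had the highest summed level of 7 macrophage genes of the series, 11679 normalised counts, and the highest sum of 8 fibroblast genes in its group, 64070.0. No member passed the test with these libraries left out. Values of members without them are given beside some of the comparisons.

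RefSeq promoter windows on GRCm38.p6, 250 bases before to 50 after the transcription start, were available for 8 members. The windows of 4 of the members whose levels moved together across tumours are shown. Those of Kit, which also moved with them, are not shown. Each shown window is read in the direction of the gene's own strand (all 4 genes lie on the minus strand). Capitals mark the GATA letters AGATAA or TGATAA, or their complements on the other strand. The window of Cpa3 is chr3:20242132-20242431, that of Mcpt4 chr14:56062261-56062560, that of Ms4a2 chr19:11623670-11623969 and that of Cma1 chr14:55944626-55944925.
Cpa3: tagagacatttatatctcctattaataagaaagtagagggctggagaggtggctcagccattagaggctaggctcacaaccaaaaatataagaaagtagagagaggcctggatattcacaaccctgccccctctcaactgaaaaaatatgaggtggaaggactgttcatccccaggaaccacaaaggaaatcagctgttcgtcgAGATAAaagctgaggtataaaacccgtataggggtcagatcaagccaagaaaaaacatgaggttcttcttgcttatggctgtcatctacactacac
Mcpt4: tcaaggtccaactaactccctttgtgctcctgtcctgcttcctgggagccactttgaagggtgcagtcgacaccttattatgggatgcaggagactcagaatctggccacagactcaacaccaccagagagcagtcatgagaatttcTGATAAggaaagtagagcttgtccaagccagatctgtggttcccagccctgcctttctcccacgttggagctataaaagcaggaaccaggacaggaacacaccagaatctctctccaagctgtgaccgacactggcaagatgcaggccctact
Ms4a2: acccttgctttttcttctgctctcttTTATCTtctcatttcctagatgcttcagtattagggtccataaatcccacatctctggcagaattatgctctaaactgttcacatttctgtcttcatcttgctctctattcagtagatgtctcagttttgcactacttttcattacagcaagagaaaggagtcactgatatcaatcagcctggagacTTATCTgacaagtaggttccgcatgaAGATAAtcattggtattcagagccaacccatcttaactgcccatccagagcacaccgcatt
Cma1: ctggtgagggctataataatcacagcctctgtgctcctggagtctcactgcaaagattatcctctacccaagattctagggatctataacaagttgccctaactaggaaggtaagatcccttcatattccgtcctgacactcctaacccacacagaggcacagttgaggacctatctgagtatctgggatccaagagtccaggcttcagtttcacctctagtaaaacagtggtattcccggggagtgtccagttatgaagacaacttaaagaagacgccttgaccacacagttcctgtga
GATA factors, among them Gata2, bind such letters. AGATAA began 46 bases before the start in Cpa3 and TGATAA 103 bases before it in Mcpt4. Ms4a2 held 3 matches, at 224, 37 and 11 bases before the start. In all, 4 of the 8 members held it, the fourth being Fcer1a at 92 bases before the start, while the windows of Cma1, Kit, Hdc and Gata2 held none. Of 32851 promoter windows of the same length, 18.61% held a match. The E-box letters CATGTG or their complement were also looked for. They were held by 1 of the 8 members, Fcer1a, beside 14.15% of the same windows. The letters are described only as sequence, and binding was not measured.

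The connective tissue-type granule proteases formed the best covered group of members. Per kilobase of transcript, the median level over the 20 tumours was 111.5 normalised counts for Tpsb2, 88.3 for Cma1, 80.1 for Mcpt4 and 77.2 for Cpa3. Kit followed at 33.9 and Gata2 at 17.8, with Ms4a2 at 8.65, Hdc at 8.53 and Fcer1a at 3.98. Within tumours, the level of Tpsb2 per kilobase exceeded that of Cma1 in 18 of 20, of Mcpt4 in 16 and of Cpa3 in 19. The order of the other proteases was less regular, with Cma1 above Mcpt4 in 14 tumours and above Cpa3 in 13, and Mcpt4 above Cpa3 in 14. Ms4a2 exceeded Hdc in 6 tumours and was below it in 13. These counts are a description without a test.

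**Figure D1:**
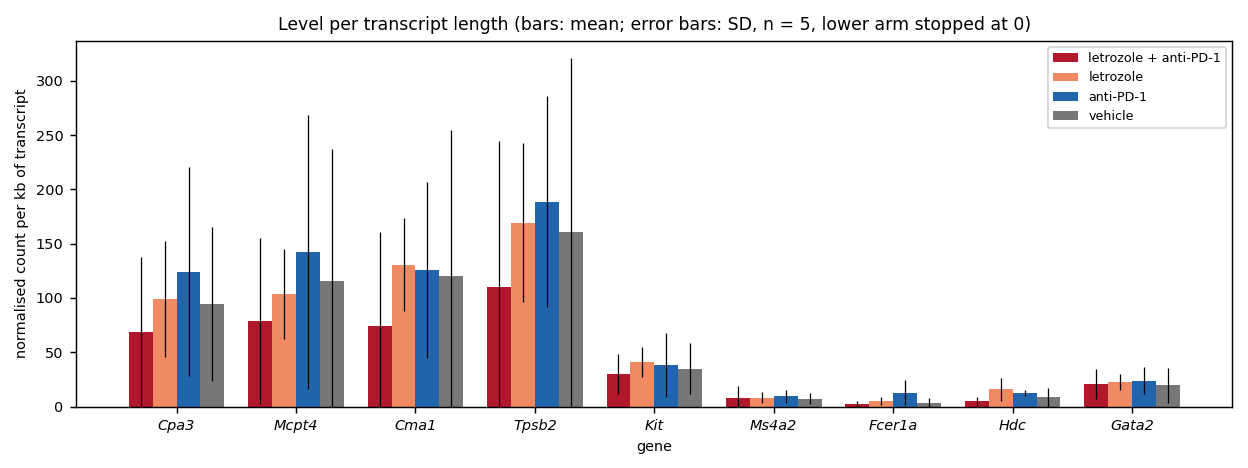
Mean level per kilobase of transcript (vertical axis, normalised counts) of the 9 mast cell genes in letrozole + anti-PD-1, letrozole, anti-PD-1 and vehicle tumours; error bars are SD of 5 tumours, with the lower arm stopped at 0. The 4 proteases stand above the other genes in every group, and the error bars of the groups overlap for each gene except Hdc, between letrozole + anti-PD-1 and anti-PD-1 tumours.

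Cpa3 encodes carboxypeptidase A of mast cell granules (transcript ENSMUST00000001921). It had 24.3, 259, 7.73, 119 and 86.8 normalised counts in the letrozole + anti-PD-1 tumours and 71.7, 262, 80.5, 134 and 173 in the letrozole tumours. Without letrozole, it had 16.9, 119, 229, 145 and 390.3 in the anti-PD-1 tumours and 104, 93.0, 318, 70.2 and 97.7 in the vehicle tumours. The lowest tumours of the series were letrozole + anti-PD-1 tumour 3, with 10 reads, and anti-PD-1 tumour 1, with 8 reads, and the 4 groups overlapped. The highest tumour exceeded the lowest 50.5-fold. Means were 99.5 ± 100.2 in letrozole + anti-PD-1, 144 ± 77.5 in letrozole, 180.2 ± 139.8 in anti-PD-1 and 137 ± 102 in vehicle tumours (SD, n = 5 each).

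Mcpt4 encodes a chymase typical of connective tissue mast cells (ENSMUST00000043249). It had 12.8, 213, 6.19, 90.2 and 113 normalised counts in the letrozole + anti-PD-1 tumours and 61.4, 161, 69.9, 134 and 148 in the letrozole tumours. In the anti-PD-1 tumours it had 82.6, 27.9, 193, 101 and 383, and in the vehicle tumours 84.3, 87.4, 365, 23.8 and 78.8. Anti-PD-1 tumour 5 and vehicle tumour 3 were high and letrozole + anti-PD-1 tumours 1 and 3 low, so that the spread within groups spanned that between them.

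Cma1, the other chymase gene of this group (ENSMUST00000022834), had 13.9, 234, 6.19, 62.6 and 83.0 normalised counts in the letrozole + anti-PD-1 tumours and 73.1, 190.4, 117, 156 and 166 in the letrozole tumours. It had 33.9, 89.9, 152, 133 and 269 in the anti-PD-1 tumours and 49.5, 99.8, 383, 26.2 and 85.9 in the vehicle tumours. Letrozole + anti-PD-1 tumours 1 and 3 lay below every other tumour. The remaining 3 of that group fell within the range of the other groups.

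Tpsb2 encodes a tryptase that forms tetramers in the granule (ENSMUST00000234477). It had 25.5, 380.1, 6.19, 103 and 102 normalised counts in the letrozole + anti-PD-1 tumours and 93.6, 282, 128, 259.8 and 183 in the letrozole tumours. It had 121, 121, 243, 188 and 382 in the anti-PD-1 tumours and 36.6, 199.7, 481, 73.8 and 108 in the vehicle tumours. Its highest tumour exceeded its lowest 77.8-fold, the widest range of the members that were above 0 in every tumour. Summed over the 4 proteases, tumours ran from 26.3 normalised counts in letrozole + anti-PD-1 tumour 3 to 1547 in vehicle tumour 3.

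**Figure D2:**
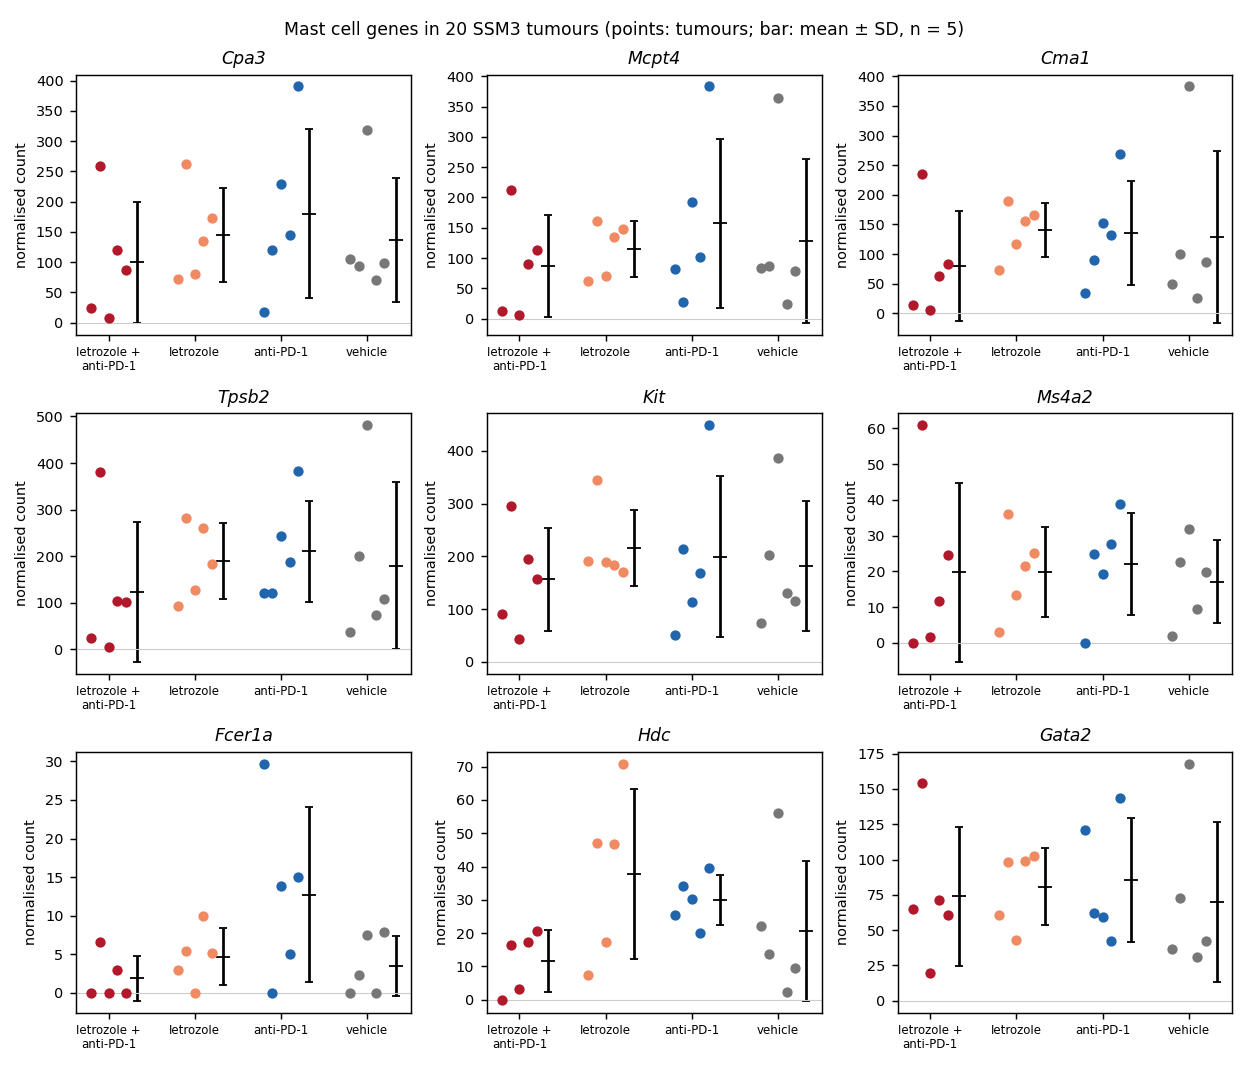
Normalised counts (vertical axis) of the 9 mast cell genes in each tumour, with letrozole + anti-PD-1, letrozole, anti-PD-1 and vehicle from left to right; points are the 5 tumours of a group in replicate order and the bar beside them is the mean ± SD. Groups overlap for each gene, and single tumours such as vehicle tumour 3 (Cpa3 318, Cma1 383) stand above the rest of their group.

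Kit encodes the receptor tyrosine kinase for stem cell factor, on which mast cells depend (ENSMUST00000005815). It had 90.4, 296, 43.3, 195 and 158 normalised counts in the letrozole + anti-PD-1 tumours and 192, 345, 189.7, 183 and 170.0 in the letrozole tumours. It had 50.8, 214, 113, 169 and 448 in the anti-PD-1 tumours and 73.3, 203, 386, 129.7 and 116 in the vehicle tumours. Its range was narrower than that of the proteases, 10.4-fold, with the same tumour lowest. Kit is also made by luminal progenitors and melanocytes. Summed levels of 6 luminal progenitor genes ran from 913 to 1393 normalised counts in letrozole + anti-PD-1, 1156 to 2048 in letrozole, 961 to 1199 in anti-PD-1 and 824 to 1691 in vehicle tumours. The part of luminal progenitors in Kit was not tested. Of 5 melanocyte genes, which summed to 51.0 to 154 in letrozole + anti-PD-1, 59.96 to 127 in letrozole, 51.4 to 101 in anti-PD-1 and 68.1 to 96.9 in vehicle tumours, the defining markers Mlana, Dct and Tyr were near 0, at series means of 1.37, 0.464 and 0.404. Pmel made up most of these sums, with a mean of 87.3 and a range of 46.4 to 154, and its part in Kit was not tested.

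The receptor for IgE was represented by its β chain gene Ms4a2 and its IgE-binding α chain gene Fcer1a, both at low levels. Ms4a2 (ENSMUST00000186978) had 0, 60.9, 1.55, 11.6 and 24.5 normalised counts in the letrozole + anti-PD-1 tumours and 2.92, 36.1, 13.4, 21.7 and 25.0 in the letrozole tumours. It had 0, 24.8, 19.3, 27.6 and 39.0 in the anti-PD-1 tumours and 1.83, 22.7, 31.8, 9.52 and 19.7 in the vehicle tumours. Each group had a tumour under 10. If reads are independent, a count of 0 allows up to 3 reads (counting error only). That is 3.48 and 6.35 normalised counts in the libraries where Ms4a2 was at 0. The reads of Ms4a2 were even in number in most tumours, so these limits may be too low.

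Fcer1a (ENSMUST00000049706) had 110 reads in the whole series, with an even number in every tumour. It had 0, 6.58, 0, 2.91 and 0 normalised counts in the letrozole + anti-PD-1 tumours and 2.92, 5.41, 0, 9.99 and 5.18 in the letrozole tumours. It had 29.7, 0, 13.8, 5.01 and 15.0 in the anti-PD-1 tumours and 0, 2.27, 7.49, 0 and 7.88 in the vehicle tumours. Its highest value stood on 14 reads in anti-PD-1 tumour 1, where Cpa3 had 8. At 0 in 7 tumours, where 3 reads would be 2.32 to 4.65 normalised counts, it had no test among the filtered genes. With no filter, limma gave a log2 difference of −2.11 between the combination and anti-PD-1 alone (unadjusted p = 0.0385, adjusted p = 0.506), and the adjusted p was at least 0.374 by limma in every comparison with no filter or with transcripts summed.

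Hdc encodes histidine decarboxylase, which makes histamine (ENSMUST00000028838). It had 0, 16.5, 3.09, 17.5 and 20.8 normalised counts in the letrozole + anti-PD-1 tumours and 7.31, 46.9, 17.2, 46.6 and 70.8 in the letrozole tumours. It had 25.4, 34.1, 30.4, 20.04 and 39.6 in the anti-PD-1 tumours and 21.98, 13.6, 56.2, 2.38 and 9.46 in the vehicle tumours. The highest letrozole + anti-PD-1 tumour only just exceeded the lowest anti-PD-1 tumour, 20.8 against 20.04. Means were 11.6 ± 9.34 in letrozole + anti-PD-1, 37.8 ± 25.5 in letrozole, 29.9 ± 7.59 in anti-PD-1 and 20.7 ± 21.05 in vehicle tumours (SD, n = 5 each).

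Gata2 encodes a zinc finger transcription factor of haematopoietic progenitors and mast cells (ENSMUST00000015197). It had 64.9, 154, 19.3, 71.3 and 60.4 normalised counts in the letrozole + anti-PD-1 tumours and 60.7, 98.3, 43.1, 99.1 and 103 in the letrozole tumours. It had 121, 62.0, 59.4, 42.6 and 144 in the anti-PD-1 tumours and 36.6, 72.6, 168, 30.9 and 42.6 in the vehicle tumours. Endothelial cells also make Gata2. Summed levels of 8 endothelial genes ran from 3494 to 4932 in letrozole + anti-PD-1, 2807 to 6093 in letrozole, 2713 to 4789 in anti-PD-1 and 1467 to 6460.0 in vehicle tumours. Their part in Gata2 was not tested.

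The first question of the design was whether the treatments moved these genes, and no member passed the test in any of 8 comparisons. The test was limma on log2(normalised count + 1) over 19844 genes, with p-values adjusted by Benjamini and Hochberg over all of them and a threshold of 0.05. In bulk tumours, fewer mast cells and less RNA per cell cannot be told apart. Averaged over both antibody arms, letrozole left 0 of 8 members past the threshold by limma, 0 at an unadjusted p under 0.05 and 0 by edgeR and by DESeq2, where 7% of all tested genes passed by limma (3.29% higher and 3.71% lower, 22.9% at an unadjusted p under 0.05). The median log2 difference of the members was −0.42, with 6 lower, beside 0.03 for all tested genes. For Cpa3 the difference was −0.48 (SE 0.57) with a 95% interval from −1.66 to 0.69. For Kit it was 0.08, with an interval from −0.71 to 0.86, and for Gata2 0.04, from −0.70 to 0.79. Without letrozole + anti-PD-1 tumour 3 the protease differences were closer to 0, at −0.14 for Cpa3, −0.16 for Mcpt4, −0.06 for Cma1 and −0.21 for Tpsb2.

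Averaged over both letrozole arms, anti-PD-1 likewise left 0 of 8 members past the threshold by limma, edgeR and DESeq2, and 0 at an unadjusted p under 0.05. The share of all tested genes called was 0% by limma, with 3.76% at an unadjusted p under 0.05. The median of the members was −0.44, with 7 lower, beside −0.01 for all genes. Cma1 had a difference of −0.64 (95% interval −1.80 to 0.52) and Kit one of −0.33 (−1.11 to 0.45). Ms4a2 had the widest interval, from −2.05 to 1.19. Without letrozole + anti-PD-1 tumour 3, Cma1 had −0.32 and Cpa3, which had −0.55 with it, −0.22. Without anti-PD-1 tumour 1 and vehicle tumour 3, Cma1 had −0.16 and Cpa3 −0.03.

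**Figure D3:**
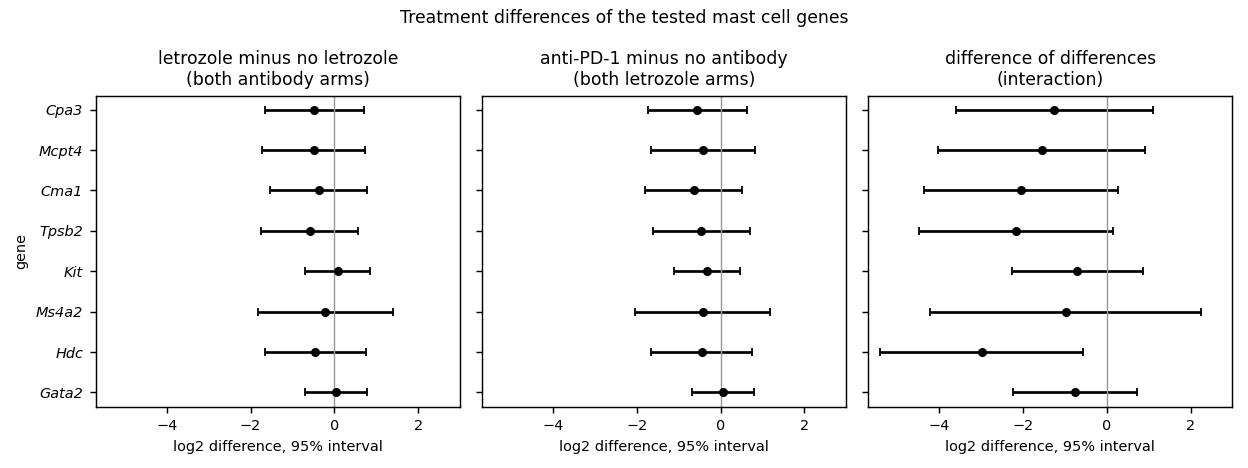
Log2 differences with 95% intervals (horizontal axis) of the 8 tested mast cell genes for letrozole averaged over both antibody arms, anti-PD-1 averaged over both letrozole arms, and their interaction. In the first and second panels every interval includes 0, and in the third only that of Hdc (−5.42 to −0.57) does not, although its adjusted p does not pass.

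Each treatment alone was set against vehicle. All 8 members had higher fitted means with letrozole alone than with vehicle, by a median of 0.43 on the log2 scale, and 0 passed by limma (0.957% of all genes passed, 0.408% higher; 13.8% at an unadjusted p under 0.05), edgeR or DESeq2. No member had an unadjusted p under 0.05 there. The adjusted p of the members ran from 0.605 to 0.965. The plain mean of Mcpt4 went the other way, 115 with letrozole alone against 128 with vehicle, and its edgeR difference was −0.151. Those of the other proteases by edgeR were 0.07 for Cpa3, 0.13 for Cma1 and 0.08 for Tpsb2, and that of Hdc was 0.86. With anti-PD-1 alone, all 8 were also higher than with vehicle, by a median of 0.37, and 0 passed (0% of all genes by limma, 539 genes or 2.72% at an unadjusted p under 0.05, 0 by edgeR and 5 by DESeq2). These comparisons share the vehicle tumours. Hdc had the highest value in each, 1.04 (SE 0.82) for letrozole and 1.04 (SE 0.82) for anti-PD-1. Cpa3 had 0.14 for letrozole and 0.07 for anti-PD-1. Without anti-PD-1 tumour 1 and vehicle tumour 3, the anti-PD-1 differences became 1.13 for Cpa3, 0.97 for Mcpt4, 1.35 for Cma1 and 1.28 for Tpsb2. The letrozole differences without those tumours were 0.50 for Cpa3, 0.79 for Mcpt4, 1.19 for Cma1 and 0.99 for Tpsb2, set beside 0.14, 0.28, 0.65 and 0.50 with them. Neither set passed.

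On the log2(normalised count + 1) scale, the combination had the lowest fitted mean of the 4 groups for 7 of the 8 tested members. The plain mean of Ms4a2, 1 of these 7, was lowest in vehicle tumours, 17.1 against 19.7 in the combination. Against anti-PD-1 alone all 8 members were lower, by a median of −1.19, with differences from −1.95 for Hdc to −0.28 for Kit, and 0 passed by limma (1.07% of all genes, 0.595% lower), edgeR or DESeq2. Hdc (−1.95, SE 0.82, adjusted p = 0.296) and Tpsb2 (−1.68, SE 0.79, adjusted p = 0.358) were the 2 members with an unadjusted p under 0.05, a share set beside 13.4% of all genes. Against letrozole alone all 8 were also lower, by a median of −1.19, and 0 passed (0% of all genes by limma, 627 at an unadjusted p under 0.05, 0 by edgeR and 9 by DESeq2). Hdc (−1.95) and Cma1 (−1.67, SE 0.79) had an unadjusted p under 0.05 there, beside 3.16% of all genes. The comparisons share the letrozole + anti-PD-1 tumours. Against vehicle, 7 of 8 were lower, by a median of −0.92, and 0 passed by limma (1.18% of all genes, 0.459% higher and 0.721% lower; 13.1% at an unadjusted p under 0.05), edgeR or DESeq2. Gata2 was the exception, at 0.10 (SE 0.50). By edgeR the differences from anti-PD-1 alone were −0.86 for Cpa3, −0.85 for Mcpt4, −0.76 for Cma1, −0.77 for Tpsb2 and −1.35 for Hdc. In the same order, those from letrozole alone were −0.53, −0.39, −0.80, −0.61 and −1.68. Those from vehicle were −0.45, −0.54, −0.67, −0.53 and −0.83.

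The size of the lower level in the combination depended on single tumours, in both directions. Without letrozole + anti-PD-1 tumour 3, the difference from anti-PD-1 alone was −0.43 for Cpa3, −0.60 for Mcpt4, −0.76 for Cma1 and −0.91 for Tpsb2, against −1.11, −1.28, −1.40 and −1.68 with it. The difference from letrozole alone became −0.50 for Cpa3, −0.53 for Mcpt4, −1.03 for Cma1 and −0.78 for Tpsb2. The difference from vehicle became −0.36 for Cpa3, −0.25 for Mcpt4, −0.38 for Cma1 and −0.28 for Tpsb2, set beside −1.04, −0.93, −1.02 and −1.05 with it. Hdc moved less, to −1.72 against each treatment alone and −0.68 against vehicle. Leaving out letrozole + anti-PD-1 tumour 2 instead took the protease differences from vehicle further from 0. They were then −1.59 for Cpa3, −1.48 for Mcpt4, −1.64 for Cma1 and −1.72 for Tpsb2. Without anti-PD-1 tumour 1 and vehicle tumour 3, the difference from anti-PD-1 alone was further from 0, at −1.80 for Cpa3 and −1.82 for Cma1, and that from vehicle closer, at −0.68 for Cpa3, −0.41 for Mcpt4, −0.48 for Cma1, −0.56 for Tpsb2 and −0.42 for Hdc. Without the 4 libraries of high muscle genes, the difference from letrozole alone was further from 0 for the 4 proteases. It was −1.90 for Cpa3, −1.75 for Mcpt4, −2.45 for Cma1 and −2.34 for Tpsb2, set beside −1.18, −1.21, −1.67 and −1.55 with them.

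The interaction, the letrozole difference with antibody minus that without it, was below 0 for all 8 members with a median of −1.41, and 0 passed by limma (0% of all genes, 392 or 1.98% at an unadjusted p under 0.05, 0 by edgeR and 4 by DESeq2). Hdc had −2.99 (SE 1.16, unadjusted p = 0.0181, adjusted p = 1.00 by limma). Tpsb2 had −2.18 (SE 1.11), Cma1 −2.05 (SE 1.11), Mcpt4 −1.56 (SE 1.19), Cpa3 −1.25 (SE 1.13) and Gata2 −0.75 (SE 0.71). The size of the interaction depended on the setting in both directions. With edgeR on recovered reads it was −0.85 for Tpsb2, −0.89 for Cma1, −0.70 for Mcpt4 and −0.93 for Cpa3. Without letrozole + anti-PD-1 tumour 3 it was −1.41 for Tpsb2, −1.41 for Cma1, −0.88 for Mcpt4 and −0.57 for Cpa3. Without anti-PD-1 tumour 1 and vehicle tumour 3 it was −2.83 for Tpsb2, −3.01 for Cma1, −2.18 for Mcpt4, −2.31 for Cpa3 and −3.53 for Hdc. In that setting 5 members and 660 genes in all had an unadjusted p under 0.05, and 0 passed by limma.

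The members varied far more between tumours of 1 group than the typical gene did. The median standard error of a pairwise log2 difference was 0.79 for the members and 0.24 for all tested genes. The within-group standard deviation on the log2 scale was 1.40 for Cpa3, 1.48 for Mcpt4, 1.38 for Cma1, 1.39 for Tpsb2 and 1.39 for Hdc, beside a median of 0.38 for all genes. Ms4a2 had 1.88, above 97.9% of tested genes, on few reads. Kit had 0.93, above 75.6% of tested genes, and Gata2 0.85, above 73.1%. The proteases and Hdc lay above 88.6% to 91.6%. The genes in this ranking were not matched for level. Group membership held 4.01% (Ms4a2) to 30.2% (Hdc) of a member's variance, beside a median of 17.4% over all genes.

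Across the 20 tumours most members moved together. The correlation with Cpa3 on the log2 scale was r = 0.92 for Cma1 (Spearman's rho = 0.91), 0.85 for Tpsb2 (0.85), 0.84 for Kit (0.69), 0.84 for Mcpt4 (0.88) and 0.84 for Ms4a2 (0.85). The adjusted permutation p over the 8 pairs was 2.7e-05 to 4.8e-05 for r, where 1e-05 is the smallest unadjusted p the permutations can give, and 2e-05 to 0.00155 for rho. Hdc followed with r = 0.67 (rho 0.72, adjusted permutation p = 0.00337 for r) and Gata2 with r = 0.56 (rho 0.54, adjusted permutation p = 0.0119 for r). Fcer1a, the scarcest, had r = 0.39 (rho 0.53, permutation p = 0.0888 for r and 0.0181 for rho, after adjustment).

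The correlations held without the most extreme tumours. Without letrozole + anti-PD-1 tumour 3 and anti-PD-1 tumour 1, farthest from the median of Cpa3, r was 0.90 for Cma1, 0.89 for Mcpt4, 0.87 for Tpsb2, 0.82 for Hdc, 0.79 for Ms4a2, 0.73 for Fcer1a, 0.70 for Kit and 0.64 for Gata2. On deviations from group means, r was 0.92 for Cma1, 0.86 for Kit, 0.84 for Ms4a2, 0.83 for Tpsb2, 0.82 for Mcpt4, 0.63 for Hdc, 0.57 for Gata2 and 0.32 for Fcer1a. Among the other pairs, Cma1 with Tpsb2 was the closest at r = 0.94.

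**Figure D4:**
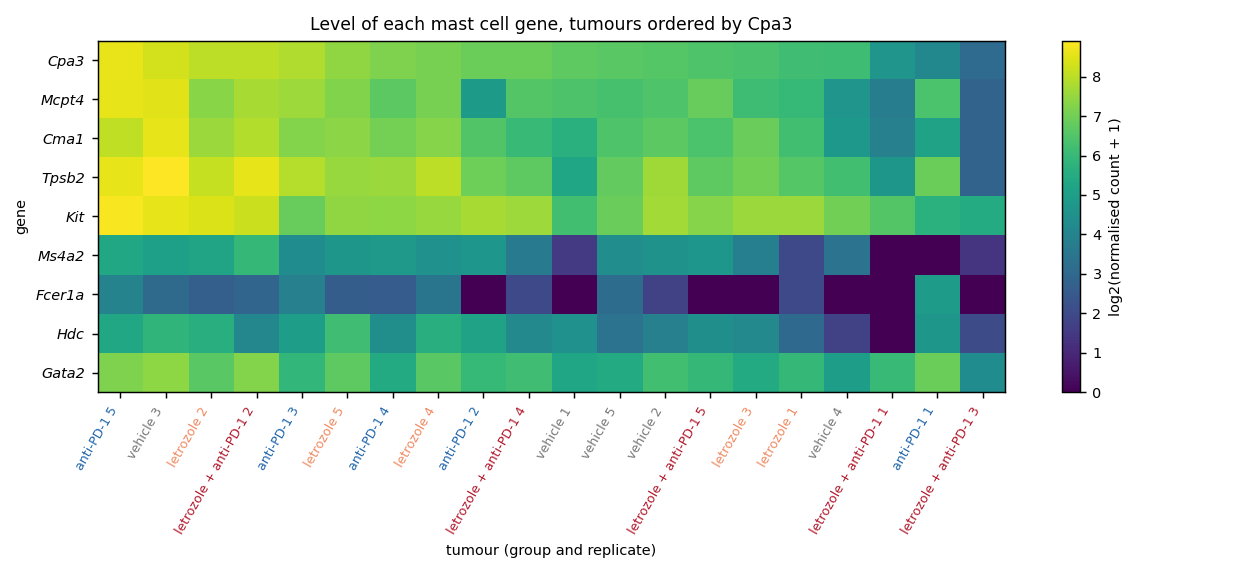
Level of each mast cell gene (rows, log2 of normalised count + 1) in the 20 tumours (columns), ordered from the highest to the lowest Cpa3, with column names coloured by group. The other proteases and Kit fall off from left to right with Cpa3, and tumours of the 4 groups are mixed along the order, with letrozole + anti-PD-1 tumours 1 and 3 and anti-PD-1 tumour 1 at the low end.

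Single tumours held the extremes for most members at once. Letrozole + anti-PD-1 tumour 3 was lowest for 7 of the 9 members, including a tie at 0 for Fcer1a, with 27943722 reads, so that it was not a shallow library. Anti-PD-1 tumour 5 was among the 3 highest tumours for 8 members, vehicle tumour 3 for 7, letrozole + anti-PD-1 tumour 2 for 5 and letrozole tumour 2 for 4. These 4 tumours belong to 4 different groups. In anti-PD-1 tumour 1 the members did not keep their usual ratios. Tpsb2 was 7.13 times Cpa3 there, on 57 and 8 reads, while the ratio ran from 0.351 to 2.15 in the other 19 tumours.

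Of 19843 other tested genes, the proteases themselves were among those most like Cpa3. By r, Cma1 ranked 1, Tpsb2 3, Kit 4, Mcpt4 7 and Ms4a2 9, while Hdc ranked 152 and Gata2 599. The median r over all genes was 0.03. Of genes outside the list, Mrgprb1, which encodes a Mas-related G protein-coupled receptor, came closest with r = 0.90, ahead of Apol6 (0.84), the second tryptase gene Tpsab1 (0.84), Vps35 (0.84), Cd1d1 (0.83), Cast (0.83), Eml1 (0.82), Fam32a (0.81), Dync1li2 (0.80) and Tecr (0.80). Without the same 2 tumours, Tpsab1 had 0.88, Mrgprb1 0.83, Cd1d1, which encodes a lipid-presenting molecule, 0.75 and Fam32a 0.74, whereas Dync1li2 had 0.55, Eml1 0.58 and Cast 0.58. These values describe likeness over 20 tumours only.

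The second tryptase gene was well read, Mcpt1 was scarce and Mcpt2 lay between them on average. Tpsab1 had 63.8, 416, 1.55, 188 and 151 normalised counts in the letrozole + anti-PD-1 tumours and 118, 309, 254, 303 and 340.1 in the letrozole tumours. It had 150.4, 167, 352, 246 and 444 in the anti-PD-1 tumours and 91.6, 261, 672, 107 and 163 in the vehicle tumours. Its lowest and highest tumours were those of Tpsb2. The mucosal-type chymase gene Mcpt1 had 65 reads in the whole series and was below the filter. Mcpt2, the other mucosal-type gene, averaged 42.5 normalised counts, above the means of Hdc (25.0) and Ms4a2 (19.7). It ran from 6.19 in letrozole + anti-PD-1 tumour 3 to 155 in vehicle tumour 3, with 133 in anti-PD-1 tumour 3. Neither Tpsab1 nor Mcpt2 passed in any comparison.

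Basophils share the IgE receptor and histamine with mast cells. Their protease genes were almost unread, with 6 reads of Mcpt8 and 8 reads of Prss34 over all 20 tumours, while Cd200r3, which encodes a receptor that mast cells also carry, averaged 81.0 normalised counts. Itga2b, the other gene on the basophil list, which megakaryocytes also make, averaged 73.7. Gata1, a partner of Gata2 in the mast cell lineage, had 57 reads in all and was below the filter.

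Beyond the members, 123 genes on the other 20 lists were tested, and the comparisons with letrozole called a few of them. Averaged over both antibody arms, 5 rose and 5 fell, against a background of 7% of all genes, and the pairwise letrozole comparisons called 2 for letrozole against vehicle (0.957% of all genes), 5 for the combination against anti-PD-1 (1.07%) and 6 for the combination against vehicle (1.18%). Many pairwise calls were lost in some of 26 alternatives. For letrozole against vehicle, that of Stat5a was lost in 1 and that of Il1rl1 in 0. For the combination against anti-PD-1, Epcam and Stat5a were each lost in 10, Enpp3 in 8, Stat5b in 6 and Il1rl1 in 0. Against vehicle, Stat5b was lost in 10, Ltc4s in 6, Stat5a in 4, Epcam in 2, and Enpp3 and Il1rl1 in 0. No gene on these lists passed for anti-PD-1 or for the interaction by limma. Of 17 tested other mast cell genes, Ltc4s and Gnaz rose and Il1rl1 and Enpp3 fell. Of 9 genes of the Kit pathway, Pik3r1 rose and Kitl, Stat5a and Stat5b fell. None of 12 genes of IgE receptor signalling passed, with 11 higher and a median of 0.48 beside 0.03 for all genes. Of these 12, 6 had an unadjusted p under 0.05 by limma, beside 22.9% of all genes. None of 4 tested histamine handling genes or of 9 haematopoietic transcription factor genes passed.

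Kitl encodes stem cell factor, the ligand of Kit. It had 567, 1116, 281, 1158 and 1454 normalised counts in the letrozole + anti-PD-1 tumours and 879, 1577, 1228, 1336 and 1368 in the letrozole tumours. It had 1093, 2336, 1470.3, 2926 and 2682 in the anti-PD-1 tumours and 2539, 1470.5, 1689, 2894 and 1154 in the vehicle tumours. The groups overlapped. With letrozole Kitl fell by 0.94 on the log2 scale (SE 0.26, 95% interval −1.48 to −0.39, adjusted p = 0.0354 by limma). The call was lost in 13 of 35 alternatives, with an adjusted p of up to 0.203: with no filter, with robust moderation, without the 4 libraries of high muscle genes, and without any of letrozole + anti-PD-1 tumour 1, letrozole tumours 1, 3, 4 or 5, anti-PD-1 tumours 2, 4 or 5, or vehicle tumours 1 or 4.

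Letrozole + anti-PD-1 tumour 3, lowest for Cpa3 and Kit, was also lowest for Kitl and for Il33, which encodes a cytokine that acts on mast cells (3204 normalised counts, beside a series mean of 15751). Over 9 growth and recruiting factor genes, looked at after the values were seen, Il33 (r = 0.76, rho = 0.50) and Kitl (r = 0.68, rho = 0.52) had the highest r with Cpa3, with adjusted permutation p = 0.00288 and 0.00688 for r but 0.114 for both rho. Without the 2 tumours farthest from the median of Cpa3 the r was 0.37 for Il33 and 0.45 for Kitl, so that these relations rested in part on those 2 tumours. Il33 did not pass for letrozole (log2 −0.10, adjusted p = 0.868 by limma).

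**Figure D5:**
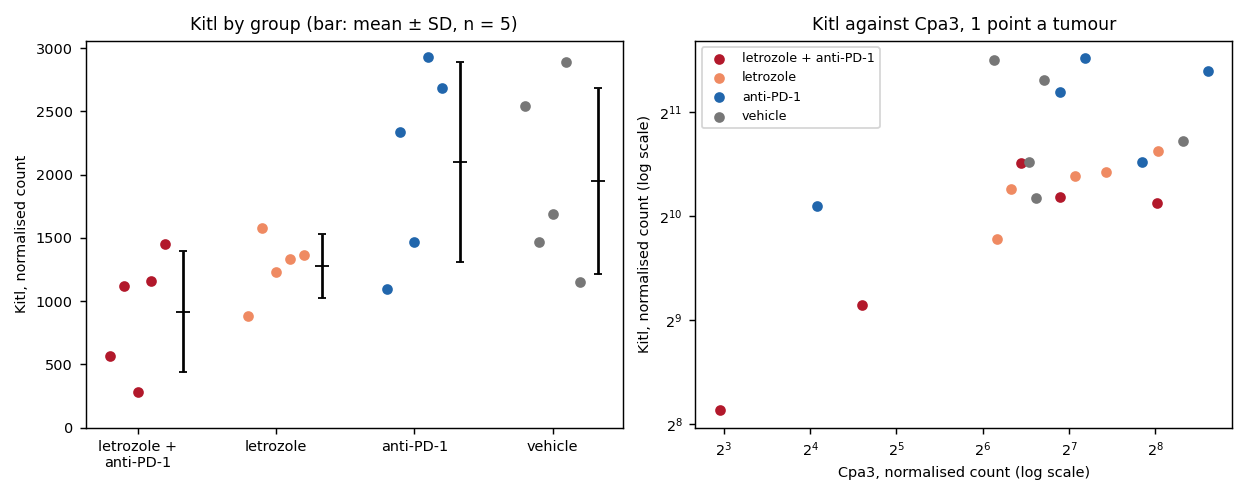
Normalised counts of Kitl by group (left; points are tumours in replicate order, bar is mean ± SD of 5) and Kitl against Cpa3 in the 20 tumours (right; both axes logarithmic). Means were 915 in letrozole + anti-PD-1, 1278 in letrozole, 2102 in anti-PD-1 and 1949 in vehicle tumours, and letrozole + anti-PD-1 tumour 3 is lowest on both axes.

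Among the other mast cell genes, Il1rl1 had the largest change with letrozole of the list genes that passed. Il1rl1, the receptor of interleukin-33, fell by 2.93 on the log2 scale (SE 0.29, adjusted p = 2.14e-06 by limma), with means of 6618 normalised counts in letrozole + anti-PD-1 and 8100 in letrozole tumours, against 46047 in anti-PD-1 and 53160.0 in vehicle tumours. Enpp3, an ectonucleotidase found on mast cells and basophils, fell by 2.01 (SE 0.36, adjusted p = 0.00211). It averaged 16.4 in letrozole + anti-PD-1 and 38.4 in letrozole tumours, against 78.7 in anti-PD-1 and 129.9 in vehicle tumours. Ltc4s, which makes leukotriene C, rose by 1.37 (SE 0.32, adjusted p = 0.0131), and its level is uncertain, since 26.8% of the transcript lies over Gm26542 on the opposite strand. Without the 4 libraries of high muscle genes its adjusted p was 0.172, and that of Gnaz (log2 0.48, adjusted p = 0.0116), a G protein subunit gene, was 0.127. Tph1, a serotonin synthesis gene that mast cells use, averaged 34723 normalised counts and Cd63, a granule membrane protein gene, 6253, and neither was called. The levels of Il1rl1, Tph1 and Cd63 were far above those of the members, of which Kit had the highest mean, 188. Which cells made the RNA of the genes in this paragraph was not tested.

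Other highly read list genes did not pass in the letrozole average. In IgE receptor signalling, the phospholipase genes Plcg2 and Plcg1 averaged 2798 and 2365 normalised counts over the series and the kinase gene Lyn averaged 1250.2. Jak2, a kinase gene of the Kit pathway, averaged 14457. In histamine handling, Slc18a2, which loads histamine into granules, averaged 68.1. Of the transcription factor genes, Bhlhe40 averaged 7319 and Runx1 5178.

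In Kit signalling, Stat5a fell by 0.83 (SE 0.12, adjusted p = 2.76e-04) and Stat5b fell by 0.37 (SE 0.06, adjusted p = 8.52e-04), genes for transcription factors activated by Kit among many receptors. Pik3r1, a regulatory subunit of phosphoinositide kinase, rose by 0.71 (SE 0.13, adjusted p = 0.00326 by limma). Stat5a and Stat5b share sequence, with 15.8% and 12.1% of their stretches of 50 bases found in another gene, so that their levels are less certain. On the lists of other cell types, Cd14 of luminal progenitors and myeloid cells rose by 0.49 (adjusted p = 0.0245 by limma). That call was lost, at adjusted p of up to 0.113 by limma, on summing transcripts, without the libraries of high muscle genes, and without any of letrozole + anti-PD-1 tumour 5, anti-PD-1 tumour 4 or vehicle tumour 1. The epithelial gene Epcam rose by 0.52 (adjusted p = 0.00142).

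Lists of mast cell genes and of other cells were set against Cpa3 by their means. The other mast cell genes had r = 0.80 with Cpa3 (rho = 0.82, adjusted permutation p = 0.00015 for r over 15 lists, 0.78 without the 2 farthest tumours), and the Kit pathway had 0.74 (rho = 0.66, adjusted permutation p = 0.00247 for r, 0.57 without them). The remaining mast cell lists had lower r, 0.50 for IgE receptor signalling, 0.54 for histamine handling, 0.47 for transcription factors and 0.47 for growth factors (0.50, 0.39, 0.46 and 0.47 without those tumours), close to luminal progenitor genes at 0.50 (0.14 without them). Macrophage genes had r = 0.38 (rho = 0.56, adjusted permutation p = 0.161 and 0.0247), T cell genes 0.44 (0.56, 0.0917 and 0.0247), fibroblast genes 0.37 (0.55, 0.161 and 0.0247) and endothelial genes 0.34 (0.45, 0.202 and 0.0747). Without the 2 farthest tumours, r was 0.51 for macrophage, 0.51 for T cell, 0.53 for fibroblast and 0.41 for endothelial genes. Skeletal muscle genes had r = 0.06 and tumour epithelial genes −0.16. Differences between these correlations were not tested. Averaged over both antibody arms, all 7 macrophage genes and 7 of 8 fibroblast genes were higher with letrozole. Their medians were 0.79 and 0.92, beside 0.03 for all tested genes and 0.48 for the 123 tested genes on all 20 other lists. By limma, 0 of either list passed, where 7% of all genes did. At an unadjusted p under 0.05 by limma there were 4 macrophage and 3 fibroblast genes, beside 22.9% of all genes.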

How the data were processed

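Bulk RNA-seq was done on 20 tumours, with 1 µg of total RNA per library, per the labels. Processing used STAR 2.7.10a, DESeq2 and build GRCm39 (mm39), per the submitters' processing notes. The read counter, annotation release, strand setting, filter and DESeq2 version stand as not given in the sources used here. What the authors deposited is 1 table of signal values per transcript, in which counts were divided by library size factors (0.472 to 1.46). Whole reads could be recovered, since 100% of the values are whole multiples of 1 step at a tolerance of 0.001. Among recovered counts of 1 to 20, 56.1% to 63.8% were even in a library. The recovered reads of Fcer1a and Hdc were even in number in every tumour. Reads of these genes may therefore not be independent, and limits set at 3 reads may be too low.

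GENCODE vM21 (GRCm38) named 118889 of 127442 transcripts (93.3%), and 49 shared symbols were dropped. Each gene was represented by its transcript of highest total, and Cma1, Kit and Fcer1a each had a pair of transcripts with identical values. Stretches of 50 bases shared with another gene made up 5.5% of Mcpt4 (with Cma2), 5.5% of Cma1 and 2.7% of Ms4a2, and no member shared exon bases with another gene.

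limma 3.58.1 tested log2(value + 1) for 19844 genes with at least 10 in at least 5 libraries. The added 1 understates changes of low genes, but limma differences of members were not always smaller than those of edgeR. For anti-PD-1 averaged over both letrozole arms, Cpa3 had −0.55 by limma and −0.06 by edgeR, and Hdc −0.46 and −0.58. The 4 group means were estimated from all 20 libraries together, leaving 16 residual degrees of freedom. Alternatives, among them count tests with edgeR 4.0.16 and with DESeq2 1.42.0 run on the recovered reads, are in the closing section. For letrozole averaged over both arms, edgeR called 1296 genes and limma 1389. Correlations used 100000 two-sided permutations. The limma script was tested on simulated data.

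The members and lists were chosen with earlier results of these data known. Named genes are all members, list genes past the threshold, the list genes of highest mean (given for the mast cell lists only) and the 10 genes most like Cpa3. The correlations of Cpa3 with list means, growth factors and Kitl were added after the data were seen.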

Additional observations from a re-analysis of the deposited data

Results flagged for a closer look

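Of 36 groups of 5 tumours (9 genes in 4 groups), 5 had a highest tumour far from the others by Dixon's test on normalised counts. The test expects about 1 group in 20 for independent, normally distributed values. These counts were skewed and most members moved together, so the number flagged cannot be set against that rate. In the vehicle group, tumour 3 stood above the others for Cpa3 (318 normalised counts, the next at 104), Mcpt4 (365, the next at 87.4) and Cma1 (383, the next at 99.8). Letrozole + anti-PD-1 tumour 2 stood above its group for Tpsb2 (380.1, the next at 103). Letrozole tumour 2 stood above its group for Kit (345, the next at 192).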

How the results depend on the processing

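The count of members past the threshold was 0 in all 8 comparisons under all 235 alternatives. Single differences were recomputed for Cpa3, Mcpt4, Cma1, Tpsb2 and Hdc in all 8 comparisons and for Kit, Ms4a2 and Gata2 only in the averaged comparisons and the interaction. Of 1479 such values, 49 changed sign and 0 passed; the lowest adjusted p was 0.159 by any of the tools. The cause of each change of sign was not tested. The differences are on the log2 scale. Under quantile normalisation, Cpa3 had −0.059 for letrozole against vehicle, and Kit −0.035 and Gata2 −0.128 for letrozole averaged. Array weights gave Ms4a2 0.169 for anti-PD-1 averaged. Under edgeR on recovered reads, Mcpt4 had −0.151 for letrozole against vehicle, Kit −0.050 and Ms4a2 0.0094 for letrozole averaged, and Ms4a2 0.198 for anti-PD-1 averaged. Under DESeq2 the same 4 were −0.163, −0.060, 0.0041 and 0.192, and Gata2 was −0.0078 for letrozole averaged. Summing transcripts gave Cpa3 −0.011 for anti-PD-1 against vehicle. Without vehicle tumour 3 and anti-PD-1 tumour 1, Kit had 0.036 and Ms4a2 0.209 for anti-PD-1 averaged, and without the 4 libraries of high muscle genes Gata2 had −0.234 for letrozole averaged.

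Leaving out 1 tumour at a time gave, for letrozole against vehicle, −0.112 to 0.504 for Cpa3 and −0.179 to 0.793 for Mcpt4. For anti-PD-1 against vehicle it gave −0.345 to 0.766 for Cpa3, −0.107 to 0.864 for Mcpt4 and −0.030 to 0.926 for Cma1. For letrozole averaged it gave −0.122 to 0.273 for Kit, −0.699 to 0.172 for Ms4a2 and −0.120 to 0.246 for Gata2, and for anti-PD-1 averaged −0.781 to 0.051 for Ms4a2 and −0.109 to 0.257 for Gata2.

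Counts over all genes moved more. For letrozole against vehicle, 190 genes became 11 without the libraries of high muscle genes, 126 with no filter, 622 by DESeq2, 732 with array weights, 1135 without both libraries apart, and 85 to 802 without 1 tumour. For the combination against anti-PD-1, 213 became 60 with the compared groups alone, 88 without the muscle libraries, 110 with no filter, 521 by DESeq2, and 72 to 256 without 1 tumour. Against vehicle, 234 became 121 with the compared groups alone, 142 without the muscle libraries, 560 with array weights, 684 by DESeq2, 943 without both libraries apart, and 122 to 694 without 1 tumour. For letrozole averaged, 1389 became 285 without the muscle libraries, 2451 without both libraries apart, 2575 with array weights, and 933 to 2325 without 1 tumour.

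With the replicate number as a block, 0 members passed in every comparison and letrozole averaged called 1391 genes. Correlations of same-numbered tumours ran from −0.344 to 0.196, with 3 of 30 over 0.1, so the numbers do not pair the tumours. A minimum of 50 left out Ms4a2 and Hdc, which then have no value. Depth limits Fcer1a, Ms4a2 and Hdc.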
